A study of Mus musculus with 60 samples.

Results

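The genes described here make or control the contractile apparatus of smooth muscle. They are 10 genes chosen by symbol, of 18194 genes with a probe set on the array: Acta2, Actg2, Myl9, Tagln, Cnn1, Cnn2, Tpm1, Tpm2, Cald1 and Srf. Each was read from the brightest of its probe sets, and 23 probe sets carried these 10 symbols. The cells were Balb/c 3T3, a mouse embryo fibroblast line that stops growing on crowding, and their RNA was measured on 60 single-colour oligonucleotide arrays. In the first set, cells received literature concentrations of the test carcinogens, which were 25 µM 2-acetylaminofluorene (AAF), 0.5 µM benzo(a)pyrene (BaP), 50 µM 2,4-diaminotoluene (DAT) or 2 µM 3-methylcholanthrene (MCA), for 24 h or for 120 h. In the second set the concentrations were growth-inhibitory ones (IC20). AAF was given at 10 µM at both times. BaP was given at 1.5 µM for 24 h and 0.1 µM for 120 h, DAT at 700 µM and 0.2 µM, and MCA at 20 µM and 0.1 µM. Controls of each set and time received 0.75% DMSO, the solvent, alone. This gave 20 groups of 3 arrays, and all cells were of the 1 line, seeded sparsely and treated before they were confluent. The labels call the arrays triplicates without saying whether they came from separate cultures, so p-values measure only the spread between these arrays.

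Smooth muscle contracts when myosin pulls on filaments of alpha and gamma smooth muscle actin, with tropomyosin, calponin and caldesmon bound along them. Serum response factor (SRF) binds CArG boxes in the control regions of these genes, together with coactivators of the myocardin family, and the coactivators MRTF-A and MRTF-B enter the nucleus when actin polymerises. Cultured fibroblasts also make many of these proteins, as stress fibres, and fibroblasts with much alpha smooth muscle actin are called myofibroblasts.

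The promoters of 4 members are shown because they hold a CArG box, or a box with 1 mismatch in its A/T stretch, in the 300 bases from 250 before to 50 after the annotated start. They are RefSeq sequences of GRCm38.p6 on the gene's strand, and capitals mark CC and GG enclosing 6 bases of which at most 1 is G or C.
Acta2 (chr19:34255324-34255623, minus strand): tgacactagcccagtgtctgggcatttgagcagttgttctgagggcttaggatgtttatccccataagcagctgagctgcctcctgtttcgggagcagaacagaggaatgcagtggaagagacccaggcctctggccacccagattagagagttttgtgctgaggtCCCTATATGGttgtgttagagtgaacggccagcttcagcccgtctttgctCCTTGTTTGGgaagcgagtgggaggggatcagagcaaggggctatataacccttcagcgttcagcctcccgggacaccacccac
Myl9 (chr2:156775214-156775513, plus strand): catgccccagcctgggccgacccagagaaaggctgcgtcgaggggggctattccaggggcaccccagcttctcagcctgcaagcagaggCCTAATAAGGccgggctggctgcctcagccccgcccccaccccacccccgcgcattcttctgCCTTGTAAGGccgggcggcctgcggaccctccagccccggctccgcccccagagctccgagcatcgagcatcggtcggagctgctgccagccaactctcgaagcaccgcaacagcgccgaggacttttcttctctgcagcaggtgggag
Cnn2 (chr10:79988350-79988649, plus strand): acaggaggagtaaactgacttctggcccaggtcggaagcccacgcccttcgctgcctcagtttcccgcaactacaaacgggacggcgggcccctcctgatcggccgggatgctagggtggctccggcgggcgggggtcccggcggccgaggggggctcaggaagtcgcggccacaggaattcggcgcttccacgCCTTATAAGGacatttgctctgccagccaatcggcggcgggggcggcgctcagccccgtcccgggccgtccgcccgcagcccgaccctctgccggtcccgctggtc
Srf (chr17:46556113-46556412, minus strand): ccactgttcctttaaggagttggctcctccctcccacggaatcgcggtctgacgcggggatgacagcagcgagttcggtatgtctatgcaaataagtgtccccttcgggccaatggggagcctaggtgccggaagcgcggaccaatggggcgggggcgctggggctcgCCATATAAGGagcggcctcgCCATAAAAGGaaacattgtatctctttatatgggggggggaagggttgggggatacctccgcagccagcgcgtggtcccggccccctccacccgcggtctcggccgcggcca
Promoters were found for 8 members, 9 promoters in all since Cald1 has 2, and none was printed for Actg2 or Tagln. A CArG box with only A and T between CC and GG, searched on both strands, was present in 3 of the 9, those of Myl9, Cnn2 and Srf, against 1.63% of 32851 RefSeq promoters of the same length. The box of Myl9 began 161 bases before the start and that of Cnn2 56 bases before it. Srf had a pair of boxes, which began 82 and 62 bases before its start. With 1 G or C allowed, Acta2 joined them with boxes that began 84 and 34 bases before its start, and Myl9 gained another 99 bases before its start. That looser box was present in 4 of the 9 promoters and in 9.98% of all. CATTCC, the letters bound by TEAD factors, was present in 3 of the 9 (Acta2, Cald1 and Tpm1) and in 14.7% of all. GCGTG, the core bound by the aryl hydrocarbon receptor, the sensor of BaP and MCA, was present in 4 of the 9 (Cnn1, Cnn2, Tpm1 and Srf) and in 32.4% of all. These matches are a description of the letters in this window.

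Of the 10 genes, 8 passed the filter on dim probe sets in each set and were tested, and they were the same 8 in both. Tagln, which encodes the actin-binding protein transgelin, and Cnn1, which encodes the calponin most restricted to smooth muscle, did not pass. The Tagln probe set lay between 5.02 and 69.3 intensity units over the 60 arrays and was above its array's median on 0 of 30 arrays of the first set and 1 of 30 of the second. The Cnn1 probe set reached at most 28.0 units and was above the median on none of the 60. Neither gene could therefore be followed on these arrays. The markers of fibroblasts were above the median on all 60 arrays (8 of 8 genes), as were the probe sets of Acta2 and Myl9, and that of Actg2 was on 30 arrays of the first set and 25 of the second.

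Array medians were 41.2 to 47.1 intensity units in the first set and 56.3 to 98.9 in the second. Arrays of a group correlated at 0.981 to 0.996 in the first set and 0.976 to 0.984 in the second, over all genes tested. Between arrays of a group a gene typically varied by an SD of 0.111 log2 units in the first set and 0.203 in the second (medians over genes), so small differences were harder to detect in the second set. The sets were scaled differently before deposit, and no value was tested between them. Differences below are on the log2(intensity + 16) scale after quantile normalization, with the standard error of the limma fit, and adjusted p-values are Benjamini-Hochberg values over all genes tested in that comparison. A change is called at an adjusted p under 0.05.

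To determine how the contractile genes behave in solvent alone, DMSO controls at 120 h were compared with those at 24 h. In the first set 7 of the 8 genes tested rose with time and 0 fell, and their median difference was 1.03 log2 units against 0.005 over all genes. So many genes moved in this comparison that 60.1% of all genes tested were called. Acta2, which encodes alpha smooth muscle actin, had intensities of 6469, 6601 and 6523 at 120 h, against 2037, 1906 and 2341 at 24 h. Every 120 h array lay above every 24 h array, and the difference was 1.66 ± 0.10 log2 units, or 3.16-fold (adjusted p = 4.19e-14). Actg2, the gene of gamma smooth muscle actin, had 288.5, 344.8 and 295.6 units at 120 h, against 68.2, 79.6 and 92.6 at 24 h (1.73 ± 0.16, adjusted p = 4.87e-10). Myl9, the regulatory myosin light chain whose phosphorylation starts contraction, had 1464, 1437 and 1221 units at 120 h, against 226.3, 210.0 and 337.2 at 24 h. Its difference of 2.38 ± 0.13 (5.22-fold, adjusted p = 7.01e-15) was exceeded by only 10 of the 11895 genes tested, those of Actg2 and Acta2 by 56 and 69.

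The regulators and filament-binding proteins rose less. Srf averaged 406 ± 29.3 units at 120 h and 178 ± 29.5 at 24 h (SD, n = 3 each), a difference of 1.12 ± 0.07 log2 units (adjusted p = 3.09e-13). Cnn2, a calponin also made outside muscle, averaged 3534 ± 88.3 at 120 h and 1849 ± 20.1 at 24 h (0.93 ± 0.06, adjusted p = 9.46e-14). Tpm1, a tropomyosin that stabilises actin filaments, averaged 2726 ± 218 at 120 h and 1520 ± 116 at 24 h (0.87 ± 0.08, adjusted p = 1.72e-10). Cald1, or caldesmon, which restrains myosin on actin, averaged 5852 ± 320 at 120 h and 4496 ± 348 at 24 h (0.41 ± 0.06, adjusted p = 6.24e-07). The arrays of these genes did not overlap between times, and how many of all genes were so placed was not counted. Tpm2, the beta tropomyosin gene, stood apart with 1201 ± 82.7 units at 120 h and 1192 ± 22.0 at 24 h, and its interval ran from -0.08 to 0.20 log2 units (adjusted p = 0.485).

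The same comparison in the second set gave 2 genes up and 3 down of 8, where 45.4% of all genes were called. Actg2 fell, with 152.8, 167.5 and 150.2 units at 120 h, against 265.1, 233.9 and 249.8 at 24 h. All 120 h arrays were below all 24 h arrays, and the difference was -1.08 ± 0.15 log2 units (adjusted p = 2.76e-06). Acta2 had 8228, 9046 and 8236 units at 120 h, against 12415, 9894 and 11426 at 24 h (-0.20 ± 0.08, adjusted p = 0.0287), and Tpm2 differed by -0.32 ± 0.12 (adjusted p = 0.0246). Cald1 rose by 0.32 ± 0.08 (adjusted p = 0.00135) and Tpm1 by 0.20 ± 0.07 (adjusted p = 0.0259). Myl9, with 1524, 1532 and 2304 units at 120 h and 1590, 1434 and 2013 at 24 h, was not called, and its interval ran from -0.34 to 0.55 (adjusted p = 0.736). Srf was not called either (-0.01 ± 0.20, adjusted p = 0.965). Without normalization the median of all genes in this comparison moved by 0.15 log2 units, and Tpm1 then differed by 0.01 and Cald1 by 0.20, neither called (adjusted p = 0.965 and 0.215). Acta2 turned to 0.49 when all its probe sets were averaged (adjusted p = 0.0551). The calls of Acta2, Tpm1 and Tpm2 were lost on leaving out single arrays, in 4, 5 and 2 of 6 cases, with adjusted p up to 0.115, 0.0711 and 0.173. Those of Actg2 and Cald1 were kept in all 6, and that of Cald1 was lost with the mean of its probe sets (0.21, adjusted p = 0.228).

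Blocking on the replicate number, Cnn2 was also higher at 120 h in the second set (0.26 ± 0.13, adjusted p = 0.124, and 0.00021 with the block). The time change in DMSO was thus 1.66 log2 units for Acta2 in the first set and -0.20 in the second, as values side by side from separately scaled sets.

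**Figure D1:**
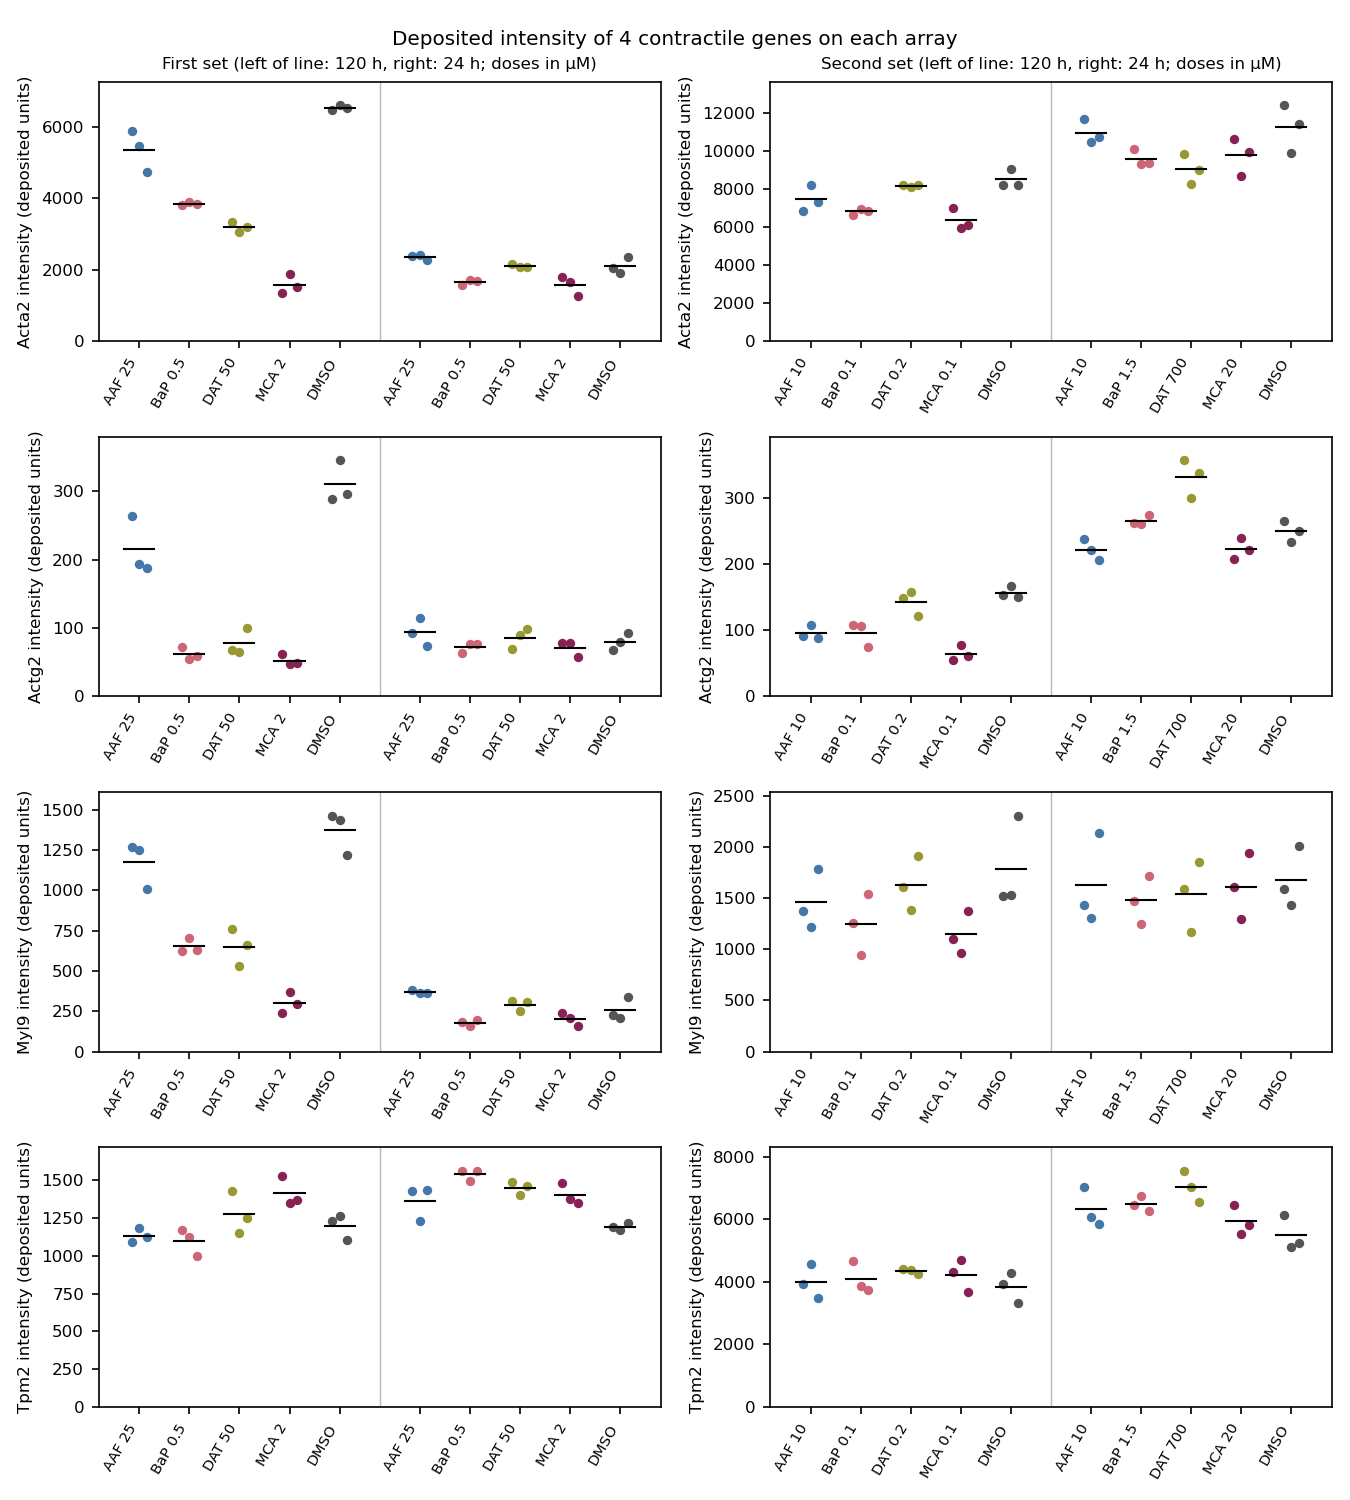
Deposited intensity of Acta2, Actg2, Myl9 and Tpm2 on each array, with the first set on the left and the second on the right; points are the 3 arrays of a group, black bars their mean, and doses are in µM. In the first set the DMSO arrays at 120 h are the highest for Acta2 (6469 to 6601), Actg2 (288.5 to 344.8) and, with AAF overlapping, Myl9 (1221 to 1464), while Tpm2 lies between 1000.5 and 1563 units.

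The next question was whether the chemicals altered these genes at 24 h. With 25 µM AAF, 0 of 8 members were called in limma, where 0.975% of all genes were, and 2 had an unadjusted p under 0.05. Myl9 had 385.1, 361.6 and 364.1 units with AAF, above all DMSO arrays at 226.3, 210.0 and 337.2, and its difference of 0.52 ± 0.13 missed the threshold (adjusted p = 0.0505). With the arrays blocked by replicate number it passed (adjusted p = 0.0163), as did Tpm2 (0.18, adjusted p = 0.0391 with the block). Over all genes the block called 718, against 116 without it. With 50 µM DAT, 0 of 8 were called against 0.227% of all genes, and 1 had an unadjusted p under 0.05. This was Tpm2, which differed by 0.24 ± 0.07 (adjusted p = 0.153, and 0.0143 with the block).

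BaP at 0.5 µM for 24 h moved 3 of the 8 genes, 1 up and 2 down, where 9.98% of all genes were called. Tpm2 rose, with 1563, 1495 and 1562 units with BaP, against 1189, 1172 and 1215 in DMSO (0.36 ± 0.07, adjusted p = 0.000548). This call held in every alternative fit and on leaving out any array. Myl9 had 183.2, 158.9 and 194.5 units with BaP, against 226.3, 210.0 and 337.2 in DMSO (-0.49 ± 0.13, adjusted p = 0.0154). Acta2 had 1557, 1709 and 1691 units with BaP, against 2037, 1906 and 2341 in DMSO (-0.33 ± 0.10, adjusted p = 0.0304). In both cases the groups did not overlap, but the calls were lost without the third DMSO array (adjusted p = 0.16 for Myl9 and 0.182 for Acta2). They were also lost without the first BaP array (0.0554 and 0.166) and without 1 more, the second BaP array for Myl9 (0.061) and the third for Acta2 (0.0726). For Myl9 it was lost as well in 1 fit of all 60 arrays (0.207) and without normalization (0.0725). With the block Cnn2 was called too (-0.15, adjusted p = 0.0183), and 2106 of all genes were, against 1187 without it.

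MCA at 2 µM for 24 h lowered 1 of the 8 genes, where 2.42% of all genes were called. Acta2 had 1803, 1659 and 1260 units with MCA, against 2037, 1906 and 2341 in DMSO (-0.42 ± 0.10, adjusted p = 0.0154), and the groups did not overlap. The call was lost without the third MCA array (-0.27, adjusted p = 0.176) and without the third DMSO array (-0.35, adjusted p = 0.145), and with only the compared arrays fitted (0.261). Tpm2 was above DMSO on all 3 arrays (0.23 ± 0.07, adjusted p = 0.0704). It passed with the block (adjusted p = 0.00874) and with the mean of its probe sets (0.0272). Over all genes the block called 656, against 288 without it. In this comparison the deviations of the third arrays correlated at -0.19, under the limit of 0.1 used for pairing. Myl9 differed by -0.31 ± 0.13 (adjusted p = 0.317).

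At 120 h in the first set MCA at 2 µM lowered 7 of the 8 genes and raised 1, where 41.2% of all genes were called. The median member difference was -0.66 log2 units, against -0.02 over all genes. Acta2 had 1337, 1879 and 1524 units with MCA, against 6469, 6601 and 6523 in DMSO. The difference was -2.05 ± 0.10, or 4.14-fold lower (adjusted p = 1.12e-14). Actg2 had 62.0, 46.9 and 48.3 units with MCA, against 288.5, 344.8 and 295.6 in DMSO, 4.74-fold lower (-2.25 ± 0.16, adjusted p = 1.43e-11). Myl9 had 238.9, 371.9 and 297.4 units with MCA, against 1464, 1437 and 1221 in DMSO, 4.48-fold lower (-2.16 ± 0.13, adjusted p = 4.94e-13). No treated array came near a control array for these 3 genes. Of the 11895 genes tested, 1 fell further than Actg2, 2 further than Myl9 and 3 further than Acta2.

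The other called members changed less with MCA at 120 h. Cnn2 averaged 2183 ± 144 units with MCA and 3534 ± 88.3 in DMSO (-0.68 ± 0.06, adjusted p = 2.77e-10). Tpm1 averaged 1744 ± 113 with MCA and 2726 ± 218 in DMSO (-0.65 ± 0.08, adjusted p = 1.35e-07). Srf averaged 299 ± 44.7 with MCA and 406 ± 29.3 in DMSO (-0.44 ± 0.07, adjusted p = 2.03e-05). The intervals of these 3 genes did not overlap those of the actins and Myl9, whose falls were larger. Cald1 fell to 4643 ± 168 with MCA, against 5852 ± 320 in DMSO (-0.35 ± 0.06, adjusted p = 1.69e-05), and the call was lost with the mean of its probe sets (-0.19, adjusted p = 0.052). Tpm2 rose, with 1531, 1349 and 1368 units with MCA, against 1230, 1266 and 1108 in DMSO (0.20 ± 0.07, adjusted p = 0.02). The Tpm2 call was lost without the first MCA array (adjusted p = 0.176) and without the third DMSO array (0.142), and in 1 fit of all 60 arrays (0.15) or of only the compared ones (0.0541).

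DAT at 50 µM for 120 h lowered 7 of the 8 genes and raised 0, where 25.3% of all genes were called. Acta2 had 3336, 3053 and 3198 units with DAT, against 6469, 6601 and 6523 in DMSO (-0.98 ± 0.10, adjusted p = 2.29e-08). Actg2 had 67.9, 64.9 and 100.01 units with DAT, against 288.5, 344.8 and 295.6 in DMSO (-1.85 ± 0.16, adjusted p = 2.64e-09). Myl9 had 758.7, 529.6 and 662.0 units with DAT, against 1464, 1437 and 1221 in DMSO (-1.06 ± 0.13, adjusted p = 5.78e-07). For Acta2, Actg2 and Myl9 every DAT array lay below every DMSO array, and how many of all genes were so placed was not counted. Cnn2, Tpm1 and Cald1 differed by -0.42 ± 0.06, -0.45 ± 0.08 and -0.27 ± 0.06 (adjusted p = 3.63e-06, 8.42e-05 and 0.000942). The Cald1 call was lost with the mean of its probe sets (-0.11, adjusted p = 0.355). Srf differed by -0.26 ± 0.07 (adjusted p = 0.00887), a call lost without the third DMSO array (adjusted p = 0.0519), in 1 fit of all 60 arrays (0.373) and without normalization (0.0766). Tpm2 was not called (0.09 ± 0.07, adjusted p = 0.349).

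BaP at 0.5 µM for 120 h lowered 4 of the 8 genes and raised 0, where 28.2% of all genes were called. Actg2 had 71.5, 54.2 and 58.9 units with BaP, against 288.5, 344.8 and 295.6 in DMSO (-2.14 ± 0.16, adjusted p = 6.16e-11). Acta2 had 3799, 3905 and 3844 units with BaP, against 6469, 6601 and 6523 in DMSO (-0.73 ± 0.10, adjusted p = 1.8e-06). Myl9 had 627.6, 708.0 and 630.7 units with BaP, against 1464, 1437 and 1221 in DMSO (-1.09 ± 0.13, adjusted p = 2.35e-07). The Actg2 arrays with BaP overlapped those of DMSO at 24 h, while the Acta2 and Myl9 arrays stayed above every 24 h array of the set. Cald1 differed by -0.15 ± 0.06 (adjusted p = 0.0443). That call was lost in 5 of 8 alternative fits and without BaP array 1 or 2 or DMSO array 2 or 3 (adjusted p from 0.0976 to 0.168). Cnn2, Tpm1, Srf and Tpm2 were not called, with differences of -0.11, -0.12, -0.15 and -0.14 (adjusted p from 0.133 to 0.264). Tpm2 passed with the block (0.0435), which called 4455 of all genes, against 3359 without it.

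AAF at 25 µM for 120 h gave 0 calls among the 8 in limma, where 0.378% of all genes were called, and 4 had an unadjusted p under 0.05. Acta2 had 5875, 5451 and 4724 units with AAF, against 6469, 6601 and 6523 in DMSO. All AAF arrays were lower, and the difference of -0.29 ± 0.10 had an interval from -0.50 to -0.09 but an adjusted p of 0.323. Actg2 had 263.6, 193.4 and 188.0 units with AAF, against 288.5, 344.8 and 295.6 in DMSO (-0.57 ± 0.16, adjusted p = 0.168). Myl9 (-0.25 ± 0.13) and Srf (0.05 ± 0.07) overlapped DMSO.

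**Figure D2:**
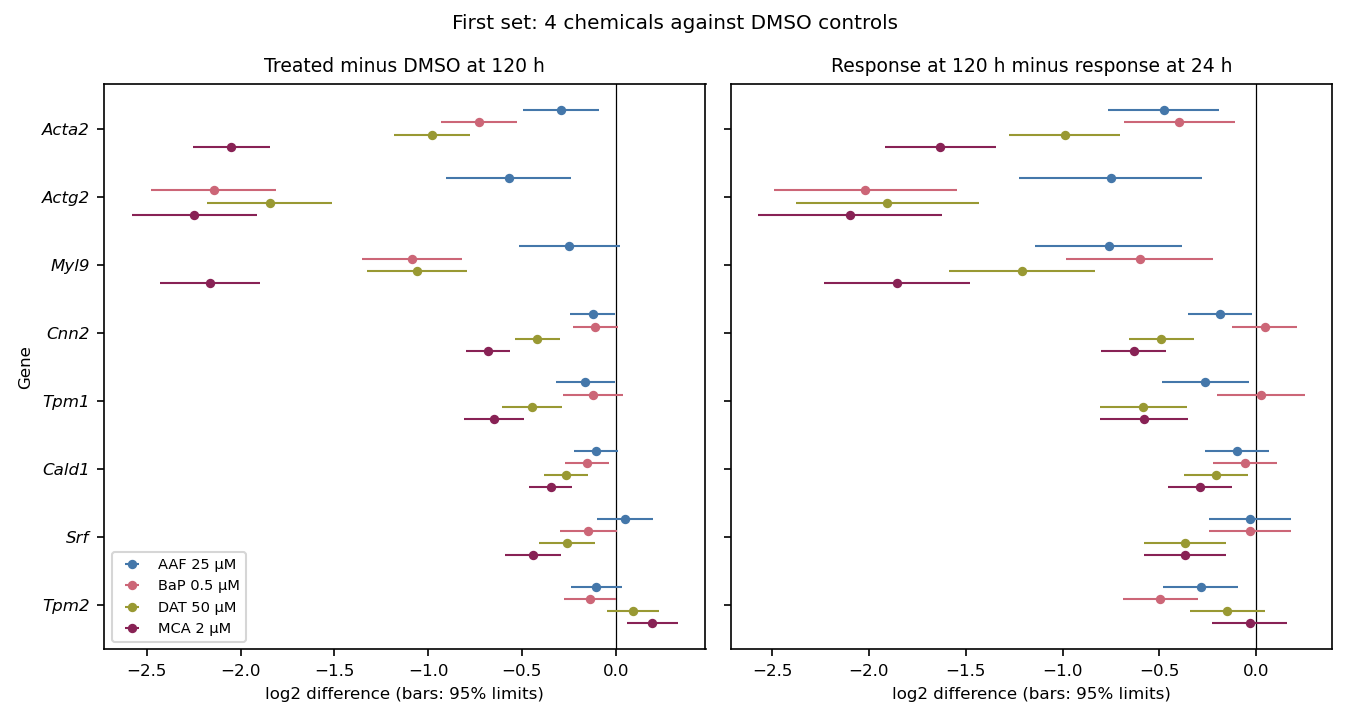
Differences of the 8 genes tested in the first set, treated minus DMSO at 120 h (left) and the response at 120 h minus that at 24 h (right); points are log2 differences and bars 95% limits, coloured by chemical. Acta2, Actg2 and Myl9 lie near -2 with MCA at 120 h (-2.05, -2.25 and -2.16), and in the left panel the AAF points lie closest to 0 for these 3 genes (-0.29, -0.57 and -0.25).

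Because the concentrations were the same at both times in the first set, the response at 120 h could be tested against the response at 24 h. With MCA 7 of the 8 genes had a lower response at 120 h, where 30.2% of all genes differed. The difference between responses was -2.10 ± 0.23 log2 units for Actg2, -1.86 ± 0.18 for Myl9 and -1.63 ± 0.14 for Acta2 (adjusted p = 3.21e-09 for Acta2). For Tpm2 it was -0.03, with both responses above 0. With DAT 6 of 8 had a lower response at 120 h, where 8.82% of all genes differed, and Acta2 differed by -0.99 ± 0.14 (adjusted p = 2.8e-05). With BaP 3 of 8 did, where 9.1% of all genes differed. These were Actg2 (-2.02 ± 0.23, adjusted p = 8.8e-07), Myl9 (-0.60 ± 0.18, adjusted p = 0.037) and Tpm2 (-0.50 ± 0.09, adjusted p = 0.00077). Acta2 passed with the block (-0.40, adjusted p = 0.0777, and 0.0429 with the block), where 1967 of all genes did, against 1082 without it. With 25 µM AAF 0 of 8 differed in limma, against 0.0673% of all genes, although 6 had an unadjusted p under 0.05 and all 8 differences were below 0. Myl9 differed by -0.76 ± 0.18 there (adjusted p = 0.173, and 0.0363 with the block). Over all genes the block called 136, against 8 without it. With 10 µM AAF of the second set 0 of 8 differed, none had an unadjusted p under 0.05, and 0% of all genes were called.

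Over the 10 groups of the first set, Acta2 was highest in DMSO at 120 h (6531 ± 66.1 units, SD, n = 3), followed at 120 h by AAF (5350 ± 582), BaP (3849 ± 53.5) and DAT (3196 ± 141). These 4 groups did not overlap with each other or with any 24 h group. AAF (2352 ± 73.1), DAT (2103 ± 57.9) and DMSO (2095 ± 223) at 24 h came next, and the AAF and DAT arrays each overlapped those of DMSO. BaP at 24 h (1652 ± 83.0), MCA at 120 h (1580 ± 275) and MCA at 24 h (1574 ± 281) were lowest and overlapped. The MCA arrays at 120 h, at 1337 to 1879 units, were below all DMSO arrays at 24 h, which began at 1906. This order is a description and was not tested beyond the comparisons above.

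Treatments at 24 h in the second set moved few members. AAF at 10 µM gave 0 of 8 calls in limma, where 0.0264% of all genes were called, and 0 members at an unadjusted p under 0.05. BaP at 1.5 µM gave 0 of 8, against 2.68% of all genes, with 2 members and 1425 of all genes at an unadjusted p under 0.05. With the block Tpm2 (0.33), Cnn2 (-0.20) and Srf (-0.45) passed there (adjusted p = 0.00235, 0.0122 and 0.0286). MCA at 20 µM gave 0 of 8, against 1.5% of all genes, with 1 member and 1225 of all genes at an unadjusted p under 0.05. Cnn2 passed with the block (-0.26, adjusted p = 0.00194), which called 1028 genes, against 170 without it.

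DAT at 700 µM for 24 h moved 2 of the 8 genes, 1 each way, where 9.08% of all genes were called. Tpm2 had 7552, 7032 and 6551 units with DAT, against 6142, 5121 and 5248 in DMSO (0.42 ± 0.12, adjusted p = 0.0215). Acta2 had 9848, 8279 and 9027 units with DAT, against 12415, 9894 and 11426 in DMSO (-0.26 ± 0.08, adjusted p = 0.0264). Neither gene overlapped, and both calls were lost in 4 of 6 fits that left out 1 array (adjusted p up to 0.0956 for Tpm2 and 0.142 for Acta2). Actg2 had 357.2, 300.2 and 338.5 units with DAT, all above the DMSO values of 265.1, 233.9 and 249.8, but was not called (0.31 ± 0.15, adjusted p = 0.243). With the block, Cnn2 (-0.40), Tpm1 (-0.16) and Srf (-0.42) were called lower as well (adjusted p = 4.51e-06, 0.0126 and 0.0213).

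At 120 h in the second set, MCA at 0.1 µM lowered 2 of the 8 genes and raised 1, where 2.87% of all genes were called. Actg2 had 54.8, 78.4 and 61.5 units with MCA, against 152.8, 167.5 and 150.2 in DMSO (-0.97 ± 0.15, adjusted p = 0.000232). Acta2 had 7028, 5954 and 6100 units with MCA, against 8228, 9046 and 8236 in DMSO (-0.44 ± 0.08, adjusted p = 0.000616). In both genes every MCA array was below every DMSO array. Tpm1 rose, with 11311, 11371 and 10800.4 units with MCA, against 8898, 9032 and 8704 in DMSO (0.31 ± 0.07, adjusted p = 0.0122). The Tpm1 call was lost without the first MCA array (adjusted p = 0.067) or the second DMSO array (0.051). Myl9 had 1099, 967.6 and 1375 units with MCA, against 1524, 1532 and 2304 in DMSO (-0.65 ± 0.22, adjusted p = 0.132). It passed with the block (7.28e-07), which called 1332 of all genes, against 326 without it.

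BaP at 0.1 µM for 120 h lowered 1 of the 8 genes, where 1.65% of all genes were called. Acta2 had 6636, 6972 and 6859 units with BaP, against 8228, 9046 and 8236 in DMSO (-0.34 ± 0.08, adjusted p = 0.0123), with no overlap. It was lost without the first BaP array (adjusted p = 0.0852) or the second DMSO array (0.0882). Counting Acta2, 4 members had an unadjusted p under 0.05. Actg2 (-0.49 ± 0.15, adjusted p = 0.13) and Myl9 (-0.54 ± 0.22, adjusted p = 0.283) lay below DMSO on every array in normalized values and Tpm1 (0.25 ± 0.07, adjusted p = 0.0814) above it, without being called. Actg2 passed without normalization (-0.63, adjusted p = 0.018) and Tpm1 in 1 fit of all 60 arrays (0.0432). With the block Actg2, Myl9 and Tpm1 all passed (adjusted p = 0.0233, 2.36e-05 and 0.000885). Over all genes the block called 1426, against 188 without it. In this comparison the deviations of the first arrays correlated at 0.089, under the limit of 0.1 used for pairing. AAF at 10 µM gave 0 of 8 in limma, against 0.616% of all genes, with 2 members and 1112 of all genes at an unadjusted p under 0.05. Actg2 averaged 96.0 ± 10.5 units with AAF and 157 ± 9.32 in DMSO (-0.56 ± 0.15, adjusted p = 0.112, and 0.0138 with the block). Myl9 passed with the block too (-0.31, 0.0102), which called 1150 of all genes with AAF, against 70 without it. DAT at 0.2 µM gave 0 of 8, with 0% of all genes called, and 0 members and 606 of all genes had an unadjusted p under 0.05. The 4 calls at 120 h in this set were all lost when only the arrays of the groups compared were fitted, with adjusted p from 0.111 to 0.161. Averaging all probe sets of a gene ended the Acta2 calls of BaP and MCA at 120 h here and of BaP, MCA and DAT at 24 h above (adjusted p from 0.339 to 0.915), the Tpm1 call (0.973) and the Tpm2 call with DAT (0.109).

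**Figure D3:**
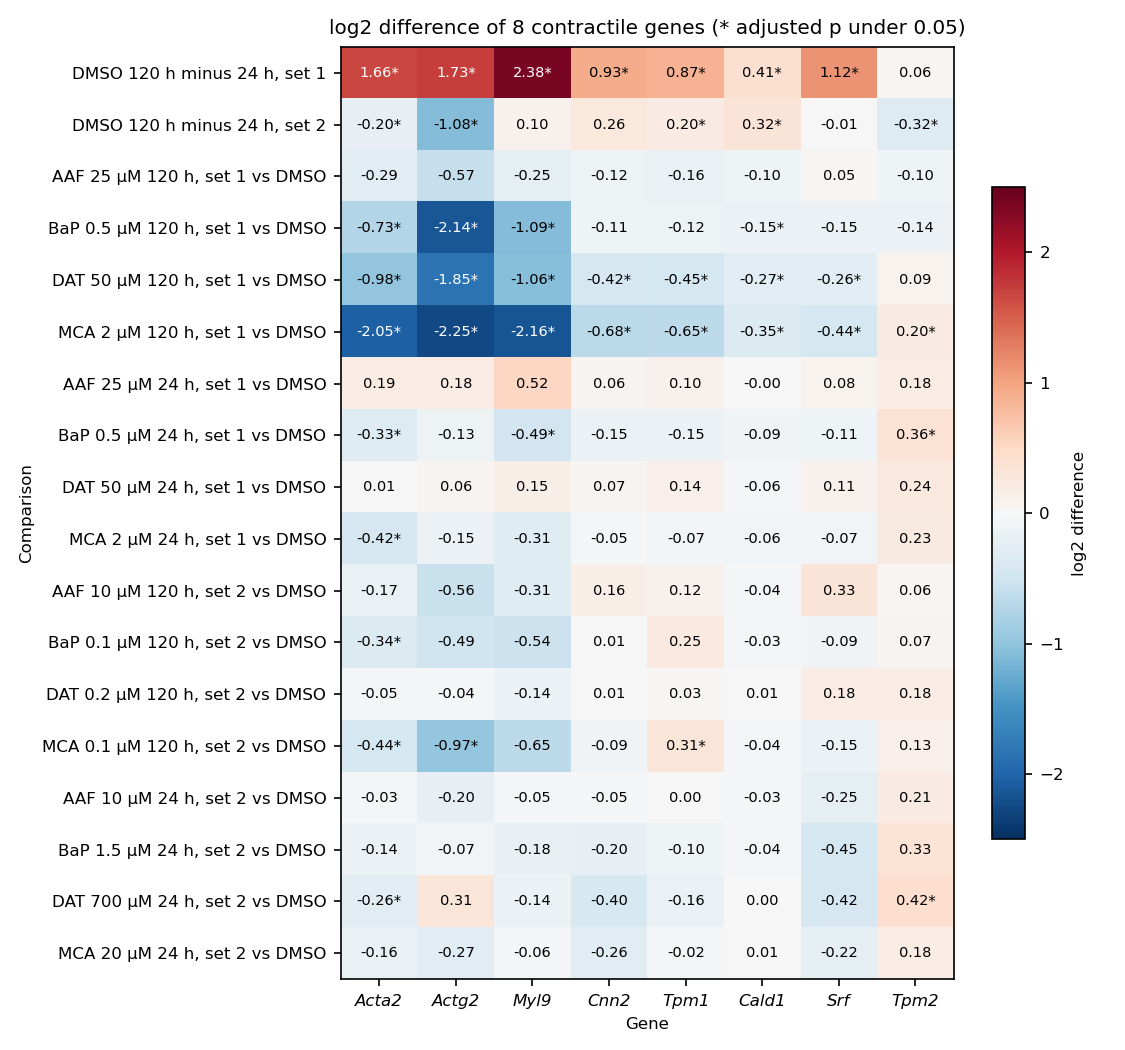
Differences of the 8 genes tested (columns) in 18 comparisons (rows), on the log2 scale, treated minus DMSO or 120 h minus 24 h; red is higher, blue is lower, and an asterisk marks an adjusted p under 0.05. Cells past 2 log2 units are the rise of Myl9 in DMSO of the first set (2.38), the falls of Acta2, Actg2 and Myl9 with MCA at 120 h (-2.05, -2.25 and -2.16) and that of Actg2 with BaP (-2.14).

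Tpm2 followed a pattern of its own in the first set. Its group means correlated with those of Acta2 at -0.73 over 10 groups, while Myl9, Cnn2, Tpm1, Cald1, Srf and Actg2 correlated with Acta2 at 0.97, 0.93, 0.93, 0.94, 0.84 and 0.77. Over the 10 groups of the second set Actg2 (0.82), Myl9 (0.86) and Tpm2 (0.52) correlated positively with Acta2, and Cnn2 (-0.46), Tpm1 (-0.82), Cald1 (-0.68) and Srf (-0.17) negatively. These are descriptions over groups that share arrays and controls. The group means of Acta2 spanned 2.08 log2 units in the first set and 0.64 in the second, and those of Actg2 spanned 2.25 and 2.36.

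Several members are read by more than 1 probe set, and these did not always agree. The brighter Srf probe set rose by 1.12 in DMSO over time in the first set, while the other had -0.00 ± 0.09 (adjusted p over probe sets = 0.992), and with MCA at 120 h they had -0.44 and -0.21. The call of a rise of Srf thus rests on 1 of its 2 probe sets, and the suffix of its name (_s_at) marks probes that can also match transcripts of other genes. The bright probe sets of Acta2 and Cald1 carry the same suffix. A dim second set for Acta2 (above the median on 12 of 30 arrays) had 2.19 ± 0.18 for DMSO time and -1.13 ± 0.18 for MCA at 120 h, the same directions. The 4 Tpm2 probe sets had 0.20, 0.25, 0.48 and 0.74 with MCA at 120 h, all above 0. The 3 Tpm1 probe sets above the median on all arrays had -0.65, -0.59 and -0.56 with MCA, and 4 of the 5 of Cald1 were below 0, the other, a dim one, at 0.34.

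**Figure D4:**
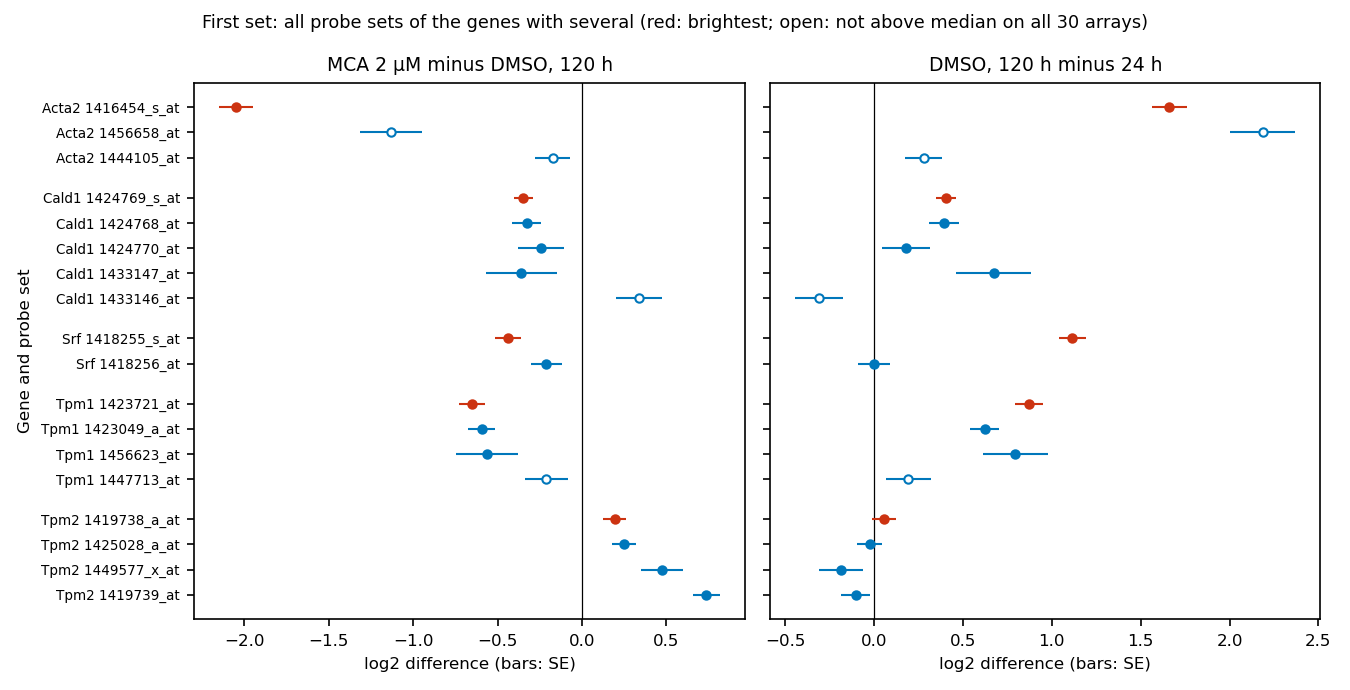
Differences of every probe set of the 5 genes with several, in the first set, for MCA at 120 h against DMSO (left) and DMSO 120 h minus 24 h (right); points are log2 differences, bars standard errors, red marks the brightest set and open points those not above the median on all 30 arrays. The Srf probe sets part in DMSO over time (1.12 and -0.00), and all 4 Tpm2 sets lie above 0 with MCA.

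Genes of the pathway that are not members were read from lists chosen with earlier results of these data known. Of 19 cytoskeletal and adhesion targets of SRF tested in the first set, 12 rose and 3 fell in DMSO over time, where 60.1% of all genes were called, with a median of 0.43 log2 units against 0.005 over all genes. The matricellular gene Ccn1 (2.52 ± 0.08), Fhl2 (1.60 ± 0.07), which encodes an SRF-interacting LIM protein, and Tgfb1i1 (1.04 ± 0.05), an adhesion protein also called Hic-5, were the strongest risers, and the LIM protein gene Csrp2 fell (-1.06 ± 0.11). With MCA at 120 h 2 of the 19 rose and 12 fell, where 41.2% of all genes were called (median -0.36, against -0.02 over all genes). Pdlim5 (-0.88 ± 0.06), Fhl2 (-0.83 ± 0.07) and Tgfb1i1 (-0.79 ± 0.05) fell, and Csrp2 rose (1.58 ± 0.11). With DAT at 120 h 2 rose and 10 fell (25.3% of all genes called), and with BaP 1 rose and 6 fell (28.2% of all genes), with Vcl, the vinculin gene, at -0.66 ± 0.07. Of 18 tested in the second set, 5 rose and 2 fell in DMSO over time, where 45.4% of all genes were called, with Ccn1 (0.86 ± 0.27) and Fhl2 (0.50 ± 0.16) up and Csrp2 (-1.12 ± 0.16) and Ankrd1 (-1.05 ± 0.21) down. With the treatments of that set 0 were called. The response to MCA was lower at 120 h than at 24 h for 12 of the 19 and higher for 2, where 30.2% of all genes differed, and Ccn1, which was higher with MCA at 24 h (0.63 ± 0.08), differed by -1.30 ± 0.11.

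The contractile partners (13 tested) include myosin chains, their kinase and phosphatase, and other actins. In DMSO of the first set 6 rose and 2 fell, a share close to the 60.1% of all genes called, led by Mylk, the kinase that phosphorylates Myl9 (1.31 ± 0.10), Ppp1r12b (1.03 ± 0.09), a subunit of the myosin phosphatase, and Myl6 (0.86 ± 0.08), the essential light chain. With MCA at 120 h 5 fell and 0 rose, a share no higher than the 41.2% of all genes called, with Myl6 at -0.42 ± 0.08 and the non-muscle myosin gene Myh10 at -0.30 ± 0.05. With BaP 1 rose and 7 fell (28.2% of all genes called), Mylk among them (-0.44 ± 0.10), while with DAT 2 rose and 4 fell (25.3% of all genes) and Mylk was among the risers (0.36 ± 0.10). The second set had 5 up and 4 down over time in DMSO (45.4% of all genes called), with Mylk up (1.02 ± 0.17) and Smtn, the smoothelin gene, and Tpm4, another tropomyosin, down (-1.10 ± 0.20 and -0.73 ± 0.10). There 3 fell with DAT at 24 h (9.08% of all genes called), and Ppp1r12b rose with BaP and with MCA at 120 h (1.02 ± 0.22 and 0.87 ± 0.22).

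Among SRF coactivators and partner factors (8 tested), 5 rose and 1 fell over time in DMSO of the first set, where 60.1% of all genes were called. Klf4, a repressor of smooth muscle genes, fell by 1.14 ± 0.12, and Mrtfa, the gene of MRTF-A, rose (0.39 ± 0.07). With MCA at 120 h Klf4 (0.66 ± 0.12) and Elk3 (0.40 ± 0.08), a partner that competes with MRTFs for SRF, rose and Foxo1 (-0.36 ± 0.09) fell, 3 of 8 where 41.2% of all genes were called. Klf4 (0.43 ± 0.12) and Elk3 (0.23 ± 0.08) rose and Foxo1 (-0.27 ± 0.09) fell with DAT at 120 h too (25.3% of all genes called). Klf4 also rose with BaP at 120 h (0.41 ± 0.12, 28.2% of all genes called). DMSO over time in the second set gave 3 up and 2 down (45.4% of all genes called), with Klf4 again lower (-0.91 ± 0.20) and Mrtfb, the gene of MRTF-B, higher (0.31 ± 0.12).

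Of 10 genes of the TGF-beta pathway, a known inducer of alpha smooth muscle actin, 5 rose and 3 fell over time in DMSO of the first set (60.1% of all genes called) and 1 rose and 5 fell with MCA at 120 h (41.2% of all genes). The ligand gene Tgfb3 was higher at 120 h in DMSO (0.93 ± 0.08) and lower with MCA (-0.83 ± 0.08), as was the receptor gene Tgfbr2 (0.61 ± 0.06 and -0.45 ± 0.06). Skil, which restrains the pathway, fell both over time in DMSO and with MCA (-1.03 ± 0.09 and -0.40 ± 0.09). The ligand gene Tgfb1 rose with MCA (0.29 ± 0.09). BaP at 120 h raised 4 and lowered 2 (28.2% of all genes called). Skil and Smad7, which also restrains the pathway, rose by 0.51 ± 0.09 and 0.40 ± 0.09. Tgfb1 rose with BaP too (0.37 ± 0.09) and Tgfb3 fell (-0.38 ± 0.08). DAT at 120 h lowered 2 (25.3% of all genes called). Over time in DMSO of the second set 3 rose and 1 fell (45.4% of all genes). The time change in DMSO and the treatments at 120 h share the DMSO arrays at 120 h, as do all the treatments of 1 set and time. Their values are therefore not independent of each other.

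The genes other than members whose 20 group means, centred within each set, were most like those of Acta2 were Tgfb1i1 (r = 0.90), Wdr1 (0.89), Rnd3 (0.89), Rgs10 (0.84) and Nrbf2 (0.84), of 10630 genes compared. Within the second set alone r was 0.60, 0.58, 0.72, -0.14 and 0.38 over 10 groups, so the likeness of Rgs10 rests on the first set.

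Fibroblast markers moved in the same comparisons. Their summed intensity was 47952 to 52187 at 120 h and 34588 to 37066 at 24 h in DMSO of the first set, where 6 of 8 rose and 2 fell (60.1% of all genes called). It was 42238 to 44837 with MCA at 120 h, where 1 rose and 5 fell against DMSO (41.2% of all genes called). It was 36458 to 40430 with BaP (1 up, 4 down, 28.2% of all genes called) and 43156 to 49433 with DAT (1 up, 3 down, 25.3% of all genes called). The 9 markers of skeletal and cardiac muscle, 5 of them tested in the first set, summed to 520.6 to 629.5 units at 120 h and 475.2 to 510.0 at 24 h in DMSO, and to 344.5 to 424.4 with MCA, 382.5 to 408.2 with BaP and 419.3 to 420.4 with DAT at 120 h. Of these, 2 rose and 1 fell over time and 2 fell with MCA, shares close to the 60.1% and 41.2% of all genes called. Myog, Myf5, Myh3 and Tnnt3 were above the median on no array of the first set. Of endothelial, pericyte, macrophage, epithelial and adipocyte markers, 0, 2, 2, 2 and 1 were tested. Pericyte markers summed to 1365 to 1484 units at 120 h and 977.2 to 1113 at 24 h in DMSO of the first set, where 1 gene rose, and to 1084 to 1198 with MCA and 1040 to 1129 with BaP at 120 h, where 1 fell with each. Most of this sum is Pdgfrb, which fibroblasts also express. Epithelial markers summed to 346.4 to 383.2 units at 120 h and 229.2 to 295.4 at 24 h in DMSO, where 1 rose, and to 279.7 to 333.5 with MCA at 120 h, where 1 fell, and 273.2 to 309.9 with BaP, where 0 did. For pericyte and epithelial markers the shares of all genes called are those printed with the fibroblast markers. The part of other cells in these differences was not tested, and in such bulk RNA fewer cells of a type and less RNA per cell cannot be told apart. The log2 ratio of 3′ to 5′ actin probes, a sign of RNA integrity, was 0.30 ± 0.03 with MCA at 120 h and 0.31 ± 0.02 in DMSO at 120 h, and 0.29 ± 0.04 in DMSO at 24 h. With BaP at 120 h it was higher than in DMSO on every array (0.44 ± 0.06). The same ratio for Gapdh was -0.18 ± 0.02 at 120 h and -0.28 ± 0.03 at 24 h in DMSO of the first set, with no overlap, and -0.19 ± 0.01 with MCA, -0.20 ± 0.05 with DAT and -0.12 ± 0.04 with BaP at 120 h. The part of these ratios in the differences was not tested. DMSO arrays of the second set had 0.54 ± 0.12 at 120 h and 0.29 ± 0.07 at 24 h, muscle markers summing to 230.6 to 324.7 units at 120 h and 327.0 to 415.1 at 24 h, and fibroblast markers summing to 125524 to 161486 at 120 h and 100243 to 133710 at 24 h. Epithelial markers summed to 334.8 to 357.0 units at 120 h and 131.2 to 235.5 at 24 h there (1 gene rose, where 45.4% of all genes were called). Adipocyte markers summed to 15.0 to 22.5 at 120 h and 151.3 to 155.1 at 24 h (1 fell), and the Gapdh ratio was -0.46 ± 0.08 at 120 h and -0.32 ± 0.04 at 24 h. The part of these values in the time changes of that set was not tested.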

How the data were processed

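RNA of 60 samples in 20 groups of 3 was read on single-colour arrays. Each array's deposited column held linear intensities of 45101 probe sets, which the authors made with GCOS, per the submitters' processing notes. How they corrected background, summarized probes and scaled arrays was not given in the sources used here. Members and all lists were chosen with earlier results of these data known. Gene names came from the platform's table. Of the probe sets, 34958 had 1 symbol, 932 several (left out) and 9211 none listed, and 204 kept an old symbol. Promoters were RefSeq sequences of GRCm38.p6. Each gene was represented by its probe set of highest mean, and tested if that lay above its array's median on at least 3 arrays of the set, which left 11895 genes in the first set and 11360 in the second. Deposited intensities were quantile-normalized within each set as log2(intensity + 16), which understates changes of dim genes. The rule used asked for this where array medians of log2 spanned over 0.5. They spanned 1.26 over 60 arrays, 0.19 in the first set and 0.81 in the second, and the rule was read over all 60. limma 3.58.1 in R 4.3.3 fitted 10 group means per set with 20 residual degrees of freedom and a trend of variance on mean. P-values were two-sided and adjusted by Benjamini and Hochberg's method over the genes of each of 23 comparisons, with a threshold of 0.05. The procedure was tested on simulated data. Intervals are 95% limits, and the number of arrays limits their precision. All 10 members are named. Of each list, at most the 4 called genes of largest change per comparison are named, and the 5 genes most correlated with Acta2. The labels number arrays 1 to 3, and same-numbered arrays deviated together (every pair's correlation over 0.1) in 14 of 18 comparisons. The exceptions were DMSO over time in the first set, MCA 2 µM at 24 h, DAT 50 µM at 120 h and BaP 0.1 µM at 120 h. This pairing comes from the deviations, not from the labels, which give numbers only. Chemicals were not tested against each other here. One further gene list is not reported here.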

Additional observations from a re-analysis of the deposited data

Results flagged for a closer look

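In 16 cases the response of a member differed between 120 h and 24 h at the same concentration in the first set, as treated minus DMSO at 120 h less the same at 24 h (limma, adjusted p under 0.05). With MCA at 2 µM these differences were -1.63 log2 units for Acta2, -2.10 for Actg2, -1.86 for Myl9, -0.63 for Cnn2, -0.58 for Tpm1, -0.29 for Cald1 and -0.37 for Srf. The Cald1 call with MCA was lost with the mean of its probe sets (-0.14, adjusted p = 0.38), and the Srf call in 1 fit of all 60 arrays (0.335) and without normalization (0.121). With DAT at 50 µM they were -0.99 for Acta2, -1.90 for Actg2, -1.21 for Myl9, -0.49 for Cnn2, -0.58 for Tpm1 and -0.37 for Srf. The Cnn2 call with DAT was lost in 1 fit of all 60 arrays (adjusted p = 0.0671). The Srf call with DAT was lost there (0.691), with only the compared arrays (0.067) and without normalization (0.139), and also in 5 of 12 fits that left out 1 array (adjusted p from 0.0516 to 0.0704, without the first or second DMSO or DAT array at 24 h, or the third DMSO array at 120 h). With BaP at 0.5 µM they were -2.02 for Actg2, -0.60 for Myl9 and -0.50 for Tpm2. The Tpm2 difference joins a response of -0.14 at 120 h to 1 of 0.36 at 24 h. The Myl9 call with BaP was lost in 8 of 12 fits that left out 1 array (adjusted p from 0.0638 to 0.112). It was kept only without the second BaP array at either time or the third DMSO array at either time. It was lost as well in 1 fit of all 60 arrays (0.347), without normalization (0.146) and with quantiles over all 60 arrays (0.0532).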

How the results depend on the processing

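The counts of member calls in DMSO over time of the first set (7), in its 120 h treatments (19 of 32) and in the response differences (16) stayed within 1.5 times under all 8 alternatives, and leaving out each array gave 7 to 7, 17 to 20 and 14 to 18. For DMSO over time in the second set (5) leaving out an array gave 2 to 4, and the count was 3 without normalization, 3 without the filter on dim probe sets and 3 with the mean of all probe sets of a gene. Acta2 reversed there with the mean of all probe sets, to 0.49 (adjusted p = 0.0551). That mean gives the dim probe sets of Acta2 the same weight as the bright one, and the cause was not tested. For 24 h treatments, leaving out an array gave 2 to 5 in the first set (4 calls) and 0 to 3 in the second (2 calls). With the replicate number as a block the counts were 9 and 9. In the second set the 24 h count was 4 in 1 fit of all 60 arrays, 1 with only the arrays of the groups compared, 1 without the filter and 0 with the mean of probe sets. At 120 h there (4 calls) leaving out an array gave 2 to 4, 1 fit of all arrays 7, only the groups compared 0, the mean of probe sets 1 and the block 10. Of 184 member differences, 57 called, the replicate block ended 0 calls and added 23. Without normalization 9 ended and 2 were added, with 1 fit of all arrays 9 and 6, with only the groups compared 10 and 1, without the filter 4 and 0, with the mean of probe sets 12 and 4, with quantiles over 60 arrays 1 and 0, and with a pseudocount of 64 none and none. With the mean of probe sets 1 further call ended, that of Acta2 over time in the second set, which reversed. Without normalization the share of called genes that were higher was 55.6% for DMSO over time in the second set, against 44.5% with it. It was 66.7% against 51.9% for DAT at 50 µM for 24 h, 65.5% against 50.3% for BaP at 1.5 µM and 100% against 75% for the response to AAF at 25 µM. Counts over all genes moved by over 1.5 times in 21 of 23 comparisons with 1 fit of all arrays, 17 with the block, 13 with only the groups compared, 12 without normalization, 4 with the mean of probe sets, 1 without the filter, and 0 with quantiles over 60 arrays or a pseudocount of 64. The lowest count on leaving out 1 array was over 1.5 times below the full one in 11 of 23 comparisons, such as 10 against 116 for AAF at 25 µM for 24 h, and the highest over 1.5 times above it in 4. The other causes were not tested. Dim signal left Tagln and Cnn1 without a test.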
